A study of Mus musculus with 2 samples.

Results

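The genes described here are 36 genes that type I interferon switches on in mouse cells, among them the ubiquitin-like Isg15, the Oas, Ifit and Mx families, nucleic acid sensors, nuclear body proteins and the p200 DNA-binding family. They were given as a list of names and were matched to the probes of a whole-genome mouse array by accession, symbol or older symbol. A gene counted as measured when the same genotype's signal was well above background on both arrays for at least 1 of its probes, and its brightest such probe stood for it. By that rule 28 of the 36 were measured, among 9941 measured genes in all. Of the rest, 7 had probes that did not pass (Eif2ak2, Ifih1, Ifit1, Ifit2, Oas2, Oas3 and Oasl2) and no probe was matched to Xaf1.

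The cells were CD8+ T cells taken by negative selection, at a labelled purity of more than 90%, from mice given Listeria monocytogenes-OVA, 6 days after infection. The mutant cells came from Bcl11bF/F/dLck-iCre animals. There the distal promoter of Lck drives a Cre late in or after thymic development, and both Bcl11b alleles, which encode a zinc finger regulator of T-cell identity, are floxed. The other cells came from wild-type mice, also infected and also sampled on day 6, so there was no uninfected group, and no age or sex of the mice was given. Each of 2 arrays carried mutant RNA in the red dye and wild-type RNA in the green dye, and the labels call the arrays biological replicates; both lay on 1 slide with the dyes the same way round, so dye and genotype cannot be told apart. Every ratio below is Bcl11b-deficient over wild type on the log2 scale. Every signal is a linear probe brightness after dye and between-array normalization, in arbitrary units. Paired values are in the order replicate 1, replicate 2.

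Type I interferons are made early in infection, when sensors of foreign nucleic acid signal through Tbk1 and the interferon regulatory factors. They bind the receptor chains Ifnar1 and Ifnar2, and the kinases Jak1 and Tyk2 then activate transcription factors, among them Stat2 and Irf9, that bind interferon-stimulated response elements in the promoters of their target genes. Listeria monocytogenes grows in the cytosol of infected cells and elicits type I interferon there, and CD8+ T cells both receive this signal while they expand and express interferon-stimulated genes of their own.

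The core of the response element, which reads GAAA, any 2 bases, GAAA, was searched for on both strands (TTTC, any 2 bases, TTTC on the other) in windows of 300 bases, from 250 bases before to 50 bases after each gene start, in RefSeq's GRCm38.p6 annotation. It was present in 3.44% of the 32851 windows and, counting a gene once, in 3.99% of 27025 genes. Of the 36 listed genes 26 had a window, and 13 of these, 50%, held the letters. The stretches below show the element in 8 of them, chosen after the values were seen to cover members that stood higher, lower and near 0 in the mutant cells, and Ifit1, which was below background; capitals mark overlapping or single matches, and each stretch is written in the direction of its gene.
Isg15 (chr4:156200863-156200908, minus strand): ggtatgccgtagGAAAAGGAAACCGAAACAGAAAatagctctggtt
Oas1a (chr5:120907526-120907557, minus strand): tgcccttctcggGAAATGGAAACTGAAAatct
Bst2 (chr8:71537575-71537614, minus strand): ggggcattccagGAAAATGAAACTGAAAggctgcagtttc
Ifit3 (chr19:34583395-34583428, plus strand): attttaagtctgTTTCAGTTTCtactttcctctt
Ifit1 (chr19:34640792-34640825, plus strand): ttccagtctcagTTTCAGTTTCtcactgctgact
Rsad2 (chr12:26456551-26456584, minus strand): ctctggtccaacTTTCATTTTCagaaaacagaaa
Ifi203 (chr1:173942506-173942539, minus strand): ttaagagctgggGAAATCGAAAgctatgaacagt
Ifi205 (chr1:174031868-174031901, minus strand): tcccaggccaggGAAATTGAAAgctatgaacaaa
Isg15 carries 3 overlapping copies in the stretch, Oas1a and Bst2 carry 2 each, and Ifit1, Ifit3 and Rsad2 carry theirs on the opposite strand. The stretches of the p200 genes Ifi203 and Ifi205 resemble each other, although the ratios of these 2 genes had opposite signs in the cells (-0.86 and 0.42). Presence of the letters did not sort the measured genes by direction: they were found in 4 of the 9 with a window and a ratio above 0, and in 5 of the 10 with a window and a ratio below 0. Sp100, the only member that passed the test, had none in its 2 overlapping windows, which says only that these letters are not there.

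Of all 9941 genes, 363 (3.65%) passed the test as higher and 592 (5.96%) as lower in the mutant cells (limma, Benjamini-Hochberg adjusted p under 0.05), so 9.61% passed in either direction and 62.0% of calls were lower. That share was 83.5% with plain median centring in place of loess, 51.1% with each array centred on its tested genes' median, 39.2% without background correction and 28.2% when both genotypes had to be above background. Bcl11b itself gave signals of 1926.6 and 559 in Bcl11b-deficient cells, against 3105 and 4323 in wild-type cells, and passed as lower (mean log2 ratio -1.82, limma adjusted p = 0.000656). The probe was not placed against the floxed exons, so this is no check of the deletion. Between 26% and 31.1% of gene spots were well above background in the mutant channel and between 28.9% and 32.4% in the wild-type channel. The ratios of replicate 1 were centred lower and spread more widely (median -0.22, SD 0.96 over all genes) than those of replicate 2 (median -0.01, SD 0.65). Negative control spots, before background correction, had a median of 968 in the mutant and 326.5 in the wild-type channel of replicate 1. On replicate 2 these medians were 707 and 406. The mutant channel of replicate 1 thus had the highest background, and its part in the low mutant signals there was not tested. The fit gave every gene the same standard error of 0.42, so a gene passed when its mean ratio lay beyond 1.18 in either direction. Only 2 arrays stand behind each value. The p-values rest on a spread pooled over all genes, so how far the 2 arrays differed for a given gene does not enter its p-value.

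As a list, and in the mean of both arrays, the measured interferon-stimulated genes lay close to the array as a whole in Bcl11b-deficient against wild-type cells. None of the 28 measured passed as higher (3.65% of all genes did) and 1, Sp100, passed as lower (5.96%), and 7 had an unadjusted p under 0.05, as did 2176 of all genes. Their median log2 ratio was -0.05, against -0.12 over all genes, with quartiles of -0.46 and 0.34 against -0.56 and 0.34. The members ran from -1.57 for Sp100 to 1.16 for Ifitm3, with 12 above 0 and 16 below. These counts and medians are over the genes that passed the filter: 18 were above background in both genotypes on both arrays, while 3 (Ifi44, Mx2 and Cmpk2) passed only through the mutant cells and 7 (Sp100, Adar, Usp18, Ddx58, Parp9, Dhx58 and Oasl1) only through the wild-type cells. Among the 18 the median was -0.03, with 8 above 0 and 10 below. The precision was low, since each mean has a 95% interval of ± 0.82, and for 22 of the 27 members that did not pass this interval reached past a 2-fold change in at least 1 direction.

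**Figure D1:**
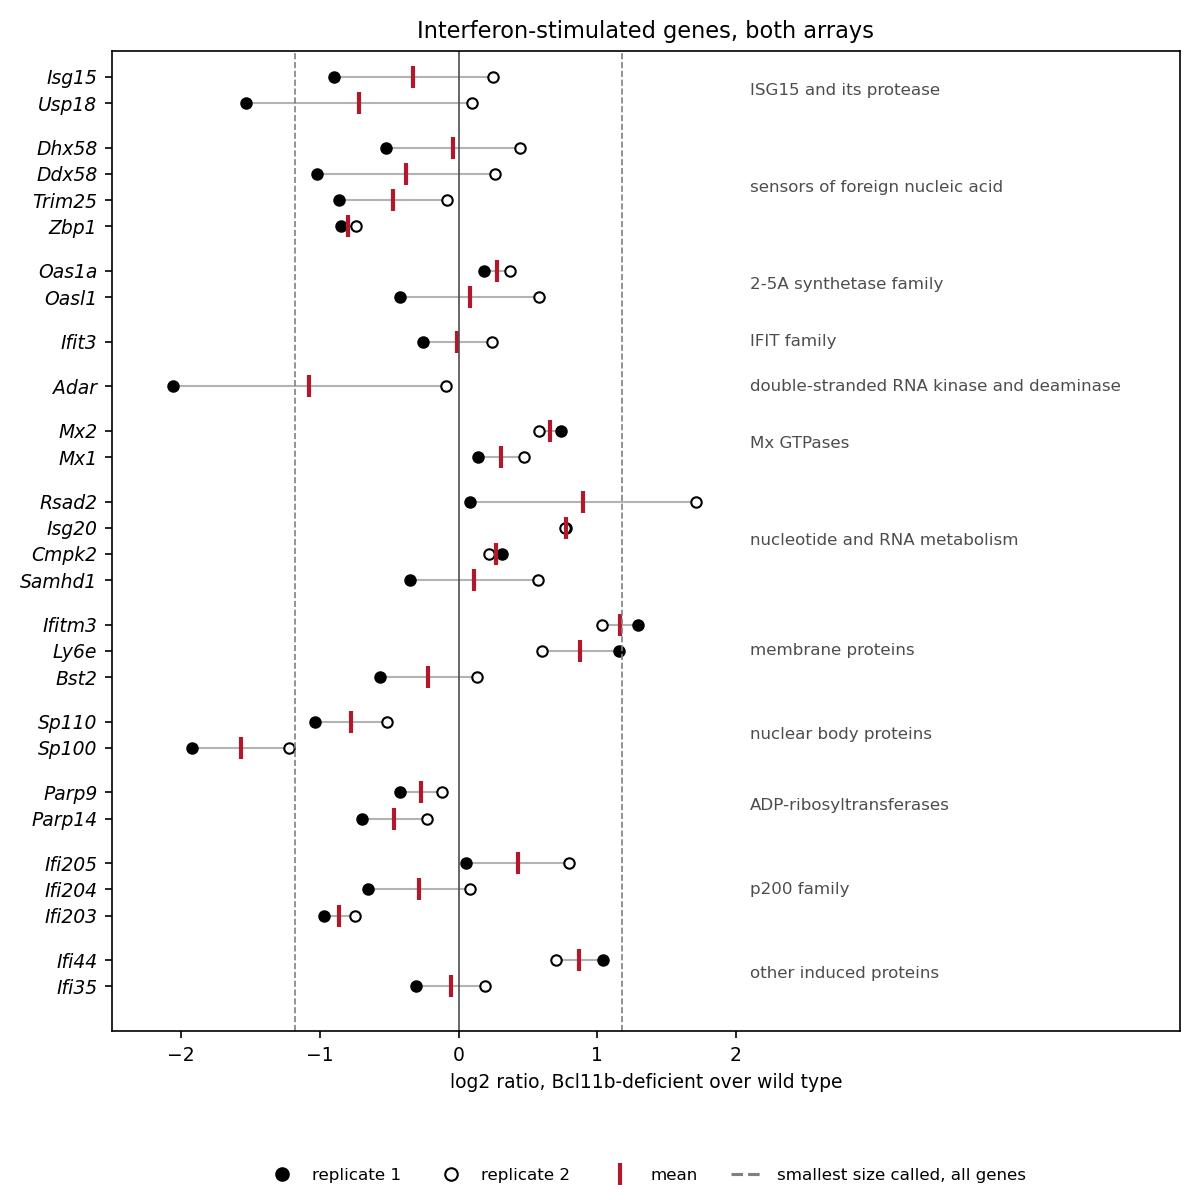
Log2 ratio (Bcl11b-deficient over wild type, horizontal axis) of the 28 measured interferon-stimulated genes, grouped by role. Filled points are replicate 1, open points replicate 2, red bars their mean, and dashed lines the smallest mean ratio called over all genes (1.18 in either direction); only the mean of Sp100 lies beyond them, at -1.57.

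Most members gave different values on the 2 arrays. On replicate 1 the median of the 28 was -0.42, against -0.22 over all genes, with 10 above 0 and 18 below. On replicate 2 it was 0.24, against -0.01, with 20 above and 8 below. The members thus departed from all genes in opposite directions on the 2 arrays. The ratio was greater on replicate 2 for 22 of the 28 (78.6%), compared with 61.8% of all genes, and it had the same sign on both arrays for 18 (64.3%), compared with 74.0%. Past 2-fold on replicate 1 were 3 members as higher (7.59% of all genes) and 5 as lower (21.6%). On replicate 2 they were 2 (6.41%) and 1 (2.51%). Ifitm3 alone was past 2-fold upward on both arrays (2.59% of all genes) and Sp100 alone downward on both (1.87%). Both mutant signals were above both wild-type signals for 10 members (28.2% of all genes), below for 8 (38.6%), and overlapped for 10. Summed over the 28, the signals were 46486 and 51202 in Bcl11b-deficient cells, against 54164 and 45568 in wild-type cells, so the order of the genotypes turned between the arrays. Across the 28 genes the arrays' ratios had a Pearson r of 0.69, against 0.59 across all genes; genes of 1 array share its labelling and are not independent.

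**Figure D2:**
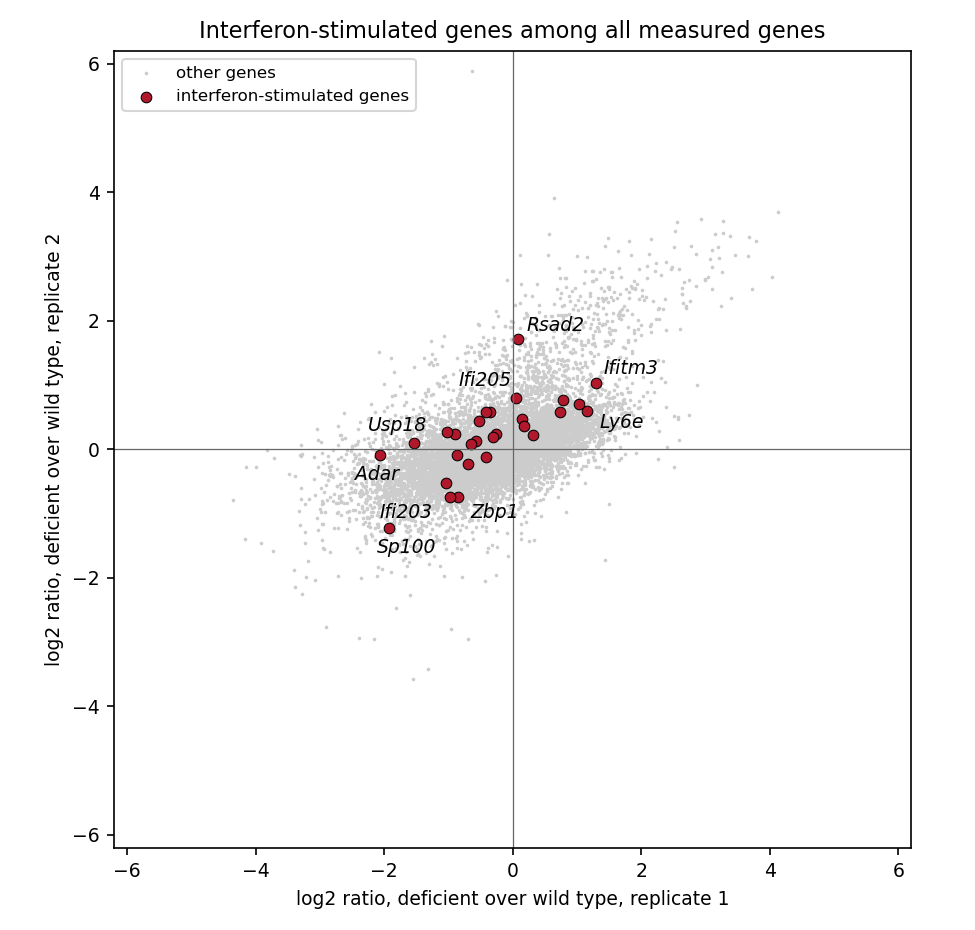
Log2 ratio (Bcl11b-deficient over wild type) on replicate 1 (horizontal axis) and replicate 2 (vertical axis) for the 28 interferon-stimulated genes (red) and the other measured genes (grey). The members lie in the middle of the cloud, with 10 above 0 on both arrays, 8 below 0 on both, and Rsad2 and Adar far off the diagonal.

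Ifitm3 had the highest mean ratio of all members. It blocks the entry of viruses from endosomes, and its signals were 2937 and 1721 in Bcl11b-deficient cells, against 1201 and 839 in wild-type cells. The mutant signals were both above the wild-type signals, and the ratios of 1.29 and 1.04 gave a mean 2.24-fold higher, just short of the threshold (limma adjusted p = 0.0546, 95% interval 0.34 to 1.98). Of the 11 alternative settings, 4 called it higher: centring on the genes' median (1.28, adjusted p = 0.0163), no background correction (0.92, 0.0413), an intensity trend in the variance (0.0170), and both genotypes above background (0.00339). The other 7 did not, with adjusted p between 0.0504 and 0.568 and, with median centring, a mean of 0.52. Ly6e, a lipid-anchored surface protein of lymphocytes, had ratios of 1.16 and 0.60; its mean of 0.88 became -0.02 with median centring. Bst2, or tetherin, holds budding virus at the cell surface and in mice also marks plasmacytoid dendritic cells. Its signals were 3702 and 4982 in Bcl11b-deficient cells, against 5497 and 4550.1 in wild-type cells, so the genotypes overlapped and the ratios of -0.57 and 0.13 had opposite signs.

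Of the genes of nucleotide and RNA metabolism none passed. Rsad2, viperin, makes a chain-terminating nucleotide that stops viral RNA synthesis. Its signals were 998 and 1531 in Bcl11b-deficient cells, against 942 and 467 in wild-type cells, with ratios of 0.08 and 1.71. The mutant signals were the higher ones on both arrays, but by little on replicate 1. The 2 ratios lay further apart than those of any other member except Adar (mean 0.90, SD 1.15, limma adjusted p = 0.172). The other Rsad2 probes, not well above background in either genotype, gave -0.51 and 0.37, and -0.76 and 0.59, so they were below 0 on replicate 1. The neighbour of Rsad2 on chromosome 12, the nucleotide kinase gene Cmpk2, stood at 0.31 and 0.22. The RNA exonuclease gene Isg20 gave 2 nearly equal ratios, 0.78 and 0.77, with a mean of 0.77 that did not pass (adjusted p = 0.261). A second Isg20 probe, above background on 1 mutant and 2 wild-type arrays, gave -0.91 and 0.30, so the direction depends on the probe. Samhd1, which depletes nucleotides and so restricts reverse transcription, had signals of 827 and 1287 in deficient cells and 1055 and 864 in wild-type cells. These overlapped, and its ratios of -0.35 and 0.57 had opposite signs.

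Both Mx genes, which encode dynamin-like GTPases that trap viral nucleoproteins, stood above 0 on both arrays without passing. Mx2 signals were 793 and 633 in Bcl11b-deficient cells, against 475 and 423 in wild-type cells; ratios were 0.74 and 0.58 (limma adjusted p = 0.358). Mx1 signals were 558 and 669 in Bcl11b-deficient cells, against 506 and 483 in wild-type cells, with ratios of 0.14 and 0.47 (adjusted p = 0.703). The mutant signals lay above the wild-type signals for both genes, but all were dim, and wild-type Mx2 was above background on 1 of 2 arrays. Many laboratory strains carry inactive Mx alleles, and the strain of these mice was not given in the sources used here.

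The nuclear body proteins were the lowest group. Sp100, a core component of PML nuclear bodies, gave signals of 626 and 849 in Bcl11b-deficient cells, against 2372 and 1981 in wild-type cells. The mutant values were both far under the wild-type values, and the mutant RNA was above background on 1 of the 2 arrays. Its ratios of -1.92 and -1.22 averaged -1.57, or 2.97-fold lower, and it fell by the test (limma adjusted p = 0.00464, 95% interval -2.39 to -0.75). This probe lies at chr1:87540737-87540796 (build NCBI36) and was designed on a complementary DNA clone, not on the RefSeq transcript; no annotation of that build was used, so its exon is not stated. Of the other probes of the gene that passed, 1 that was above background in both genotypes gave ratios of -0.28 and -0.08, and 1 above background only in wild-type cells gave -0.89 and -0.21. The lower call therefore rests on 1 of 3 probes, with a mean over the probes of -0.77 (adjusted p = 0.255), and it held in 5 of the 11 alternative settings.

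Sp110, which lies near Sp100 on chromosome 1, gave signals of 4080.2 and 5561 in Bcl11b-deficient cells, against 8348 and 7969.6 in wild-type cells. Both mutant signals were again the lower ones, with ratios of -1.03 and -0.52. The mean of -0.78 did not pass (limma adjusted p = 0.259), although it did with median centring (-1.67, adjusted p = 0.0433). In every setting with both arrays, its ratio was below 0.

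**Figure D3:**
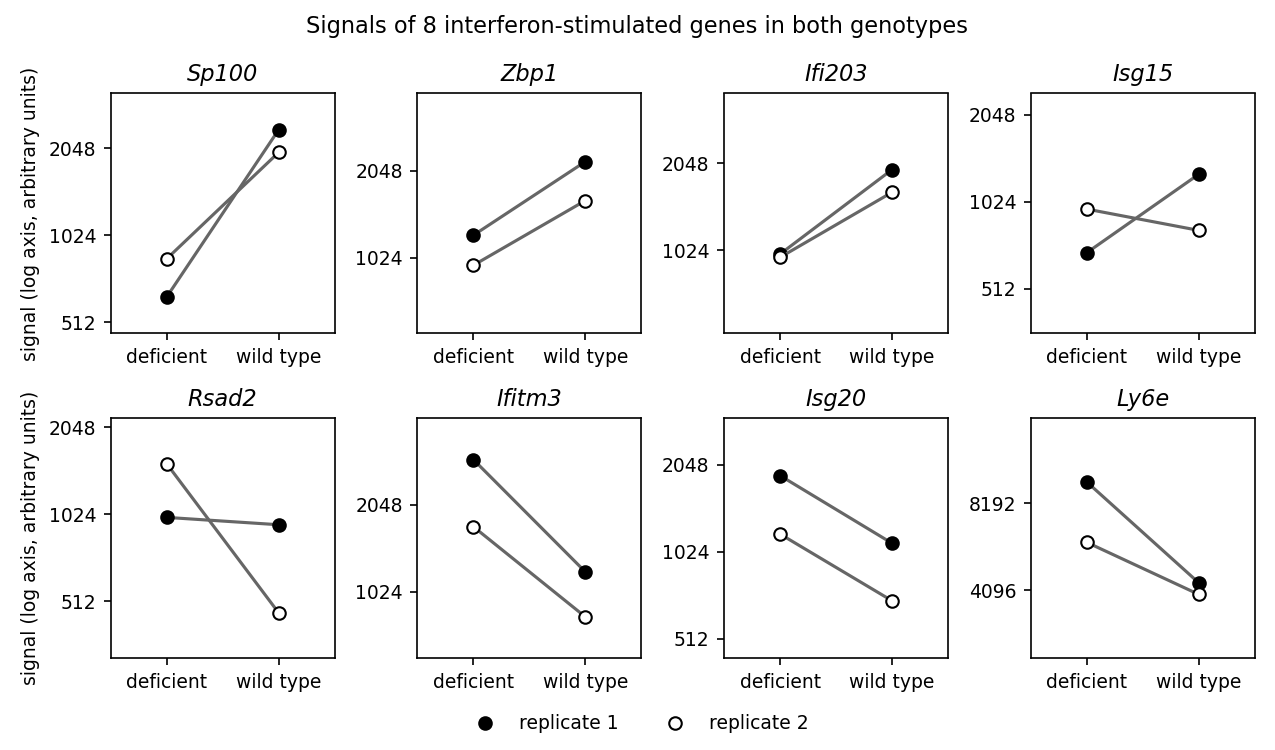
Normalized signals (arbitrary units, log axis) of 8 interferon-stimulated genes in Bcl11b-deficient (left point) and wild-type (right point) RNA, a line joining the 2 genotypes of each array; filled points are replicate 1 and open points replicate 2. The mutant points lie below the wild-type points for Sp100, Zbp1 and Ifi203 and above them for Ifitm3, Isg20, Ly6e and Rsad2, by little on replicate 1 for Rsad2, while the mutant point of Isg15 is the lower one on replicate 1 and the higher one on replicate 2.

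Isg15 and its protease were unlike on the 2 arrays. Isg15 is a ubiquitin-like protein that is joined to other proteins after interferon; its signals were 682 and 965 in Bcl11b-deficient cells, against 1273 and 814 in wild-type cells. The genotypes overlapped, and the mutant value was the lower one on replicate 1 but the higher one on replicate 2 (ratios -0.90 and 0.24, limma adjusted p = 0.678). The array places this probe on chromosome 17, while RefSeq places the gene on chromosome 4, so signal from another transcript cannot be set aside. Usp18 removes Isg15 from proteins and damps the interferon receptor. Its signals were 491 and 1132 in Bcl11b-deficient cells, against 1421 and 1060.4 in wild-type cells, again overlapping, with ratios of -1.53 and 0.09 and a mean of -0.72 (adjusted p = 0.304). Its mutant signal was above background on 1 of 2 arrays.

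All 4 measured sensor genes had a mean below 0 and none passed. Zbp1, a sensor of left-handed nucleic acid that starts cell death, gave signals of 1227 and 966 in Bcl11b-deficient cells, against 2206 and 1617 in wild-type cells. On both arrays the mutant signal was the lower one, and the arrays gave nearly equal ratios of -0.85 and -0.74 (mean -0.79, limma adjusted p = 0.246). Dhx58, which regulates RIG-I-like sensing, gave 499 and 719.5 in deficient cells and 717 and 529 in wild-type cells, overlapping, with ratios of -0.52 and 0.44. Ddx58, the RNA sensor RIG-I, and Trim25, the ubiquitin ligase that activates it, stood at -1.02 and 0.26 and at -0.86 and -0.09. The double-stranded RNA sensor gene Ifih1 did not reach the filter.

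Adar, the adenosine deaminase that marks cellular double-stranded RNA as self, had the second lowest mean. Its signals were 231 and 766 in Bcl11b-deficient cells, against 965 and 816 in wild-type cells. The mutant value of replicate 1 stood far below the other 3, while on replicate 2 the genotypes were nearly equal, and the mutant signal was above background on 1 of 2 arrays. The ratios of -2.06 and -0.09 averaged -1.08 and did not pass (limma adjusted p = 0.0841). A second Adar probe gave -0.96 and -0.39, in the same direction. Like the first, it passed the filter only through the wild-type cells, which favours a lower ratio. The kinase gene Eif2ak2, known as PKR, did not reach the filter.

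In the oligoadenylate synthetase family, whose products activate RNase L against viral RNA, 2 of 5 genes were measured. Oas1a gave 669 and 629 in Bcl11b-deficient cells, against 589.5 and 487 in wild-type cells. The mutant signals were slightly above the wild-type signals, at ratios of 0.18 and 0.37 (limma adjusted p = 0.731). Oasl1, which in mice holds back translation of Irf7, gave 466 and 739 in deficient cells and 623 and 495 in wild-type cells. Those values overlapped and its ratios were -0.42 and 0.58. For Oas2, Oas3 and Oasl2 no genotype was above background on both arrays; Oasl2 was above it on 1 array in mutant cells and on 1 in wild-type cells.

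Of the Ifit genes, which encode proteins that bind viral RNA caps or ends, only Ifit3 was measured. Its signals were 1107 and 1036 in Bcl11b-deficient cells, against 1326 and 877 in wild-type cells. They overlapped, and the ratios of -0.26 and 0.24 averaged -0.01, nearest to 0 of all members (limma adjusted p = 0.992, 95% interval -0.83 to 0.81). Ifit1, commonly used as a marker of the interferon response, was below background in both genotypes on both arrays, and Ifit2 was above it on 1 wild-type array only.

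The ADP-ribosyltransferases were close to each other. Parp14, which modifies proteins with single ADP-ribose units, gave 2780.3 and 3066 in Bcl11b-deficient cells, against 4515 and 3583 in wild-type cells. Both mutant signals were the lower ones (ratios -0.70 and -0.23, limma adjusted p = 0.538). Parp9, which acts with the ubiquitin ligase Dtx3l, gave 473 and 514 in deficient cells and 633 and 559 in wild-type cells. Its mutant signals were also the lower ones, at ratios of -0.42 and -0.12 (adjusted p = 0.736).

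The p200 family, a cluster of related genes on chromosome 1 whose proteins bind DNA, divided. Ifi203 signals were 995 and 969 in Bcl11b-deficient cells, against 1949 and 1627 in wild-type cells. The mutant signals were both lower, with close ratios of -0.97 and -0.75 and a mean of -0.86 that did not pass (limma adjusted p = 0.199); it passed when both genotypes had to be above background (adjusted p = 0.0443). Ifi205 signals were 5921 and 9162 in Bcl11b-deficient cells, against 5693 and 5288 in wild-type cells. They were higher in the mutant cells on both arrays, with ratios of 0.06 and 0.79, but by little on replicate 1, and median centring turned the mean to -0.47. Ifi204 had ratios of -0.65 and 0.08, and a neighbouring probe of the same transcript gave 1.01 and 0.58, the opposite direction on replicate 1. The probe that stands for Ifi205 is annotated to transcripts of Ifi204, Ifi205 and Ifi211 together, so values within this family are uncertain. A second Ifi205 probe, annotated to Ifi205 alone and above background only in mutant cells, gave 0.61 and 1.41. A second Ifi203 probe gave -1.77 and -0.49, in the direction of the first. That second probe passed the filter only through the wild-type cells, which favours a lower ratio.

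The remaining pair are induced proteins of less settled function. Ifi44 gave 876 and 615 in Bcl11b-deficient cells, against 426 and 377 in wild-type cells. Both mutant signals were above both wild-type signals, neither of which was well above background. The mean was 1.83-fold higher in the mutant cells, without passing (limma adjusted p = 0.19, 95% interval of the log2 ratio 0.05 to 1.69). Ifi44 passed the filter only through the mutant cells, which favours a higher ratio. Ifi35, which pairs with Nmi, gave 746 and 937 in deficient cells and 922 and 821 in wild-type cells. Its signals overlapped and its ratios were -0.30 and 0.19.

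Upstream of these genes, 31 of 43 listed genes of interferon signalling were measured, and 3 passed as higher (3.65% of all genes did) and 4 as lower (5.96%), with a median of -0.17. The receptor chain Ifnar1 passed as lower (limma adjusted p = 0.0195). Its signals were 355 and 768 in Bcl11b-deficient cells, against 1536 and 1159 in wild-type cells. They were lower in the mutant cells on both arrays, with ratios of -2.12 and -0.59. The mutant signal was above background on 1 of 2 arrays, so the gene passed the filter only through the wild-type cells. The other chain, Ifnar2, stood at -0.04 and -0.31 and did not pass. Of the factors that carry the signal, Stat2 stood at 0.52 and 0.69, Irf9 at 0.36 and 0.03 and the amplifying factor Irf7 at 0.76 and 0.49, none of which passed.

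The other lower calls were Tbk1 and Ikbke, the kinases that activate interferon regulatory factors, and Socs3, an inhibitor of cytokine receptor signalling. Tbk1 had ratios of -3.09 and -0.11, so that its mean was carried by replicate 1, and its mutant signal was above background on 1 of 2 arrays (adjusted p = 0.00373). Ikbke had a mean 2.77-fold lower, with no mutant signal well above background (limma adjusted p = 0.00937). Socs3 gave 2693 and 2885 in deficient cells and 7474 and 7616 in wild-type cells, nearly the same on both arrays (mean ratio -1.44, limma adjusted p = 0.0116). Among the lower calls of this list, only Socs3 was above background in both genotypes on both arrays. Ifnar1, Tbk1 and Ikbke passed the filter only through the wild-type cells, where they were the brighter, so their lower calls lean on the filter. The higher calls were Irf8 (ratios 1.66 and 2.42), a factor of myeloid cells and B cells, Irf5 (1.01 and 2.16), a factor of the same lineages, and Ifngr1 (1.24 and 1.34), a chain of the type II interferon receptor. Among the ligands, Ifnb1, Ifna1, Ifna2, Ifna4 and Ifna11 did not reach the filter and Ifng had ratios of -1.64 and 0.44.

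A further list of 36 interferon-stimulated genes had 24 measured, of which 2 passed as higher (3.65% of all genes) and 1 as lower (5.96%), with a median of 0.00. A mean beyond 1 in either direction was seen for 29.2% of them, 10.7% of the first list and 14.3% of all genes. Ifi30, a lysosomal thiol reductase of antigen-presenting cells, rose (signals 3199.6 and 3844 in deficient cells and 1018 and 886 in wild-type cells; limma adjusted p = 0.000368). Lgals3bp, a secreted glycoprotein, also rose, with ratios of 1.57 and 0.93 (adjusted p = 0.0353). Slfn1, a schlafen gene of T cells, passed as lower, by at least 1.87-fold (limma adjusted p = 0.00527). No mutant signal of it was well above background, so it too passed the filter only through the wild-type cells. Over this list and the signalling genes together 5 were lower, and 1 when both genotypes had to be above background.

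**Figure D4:**
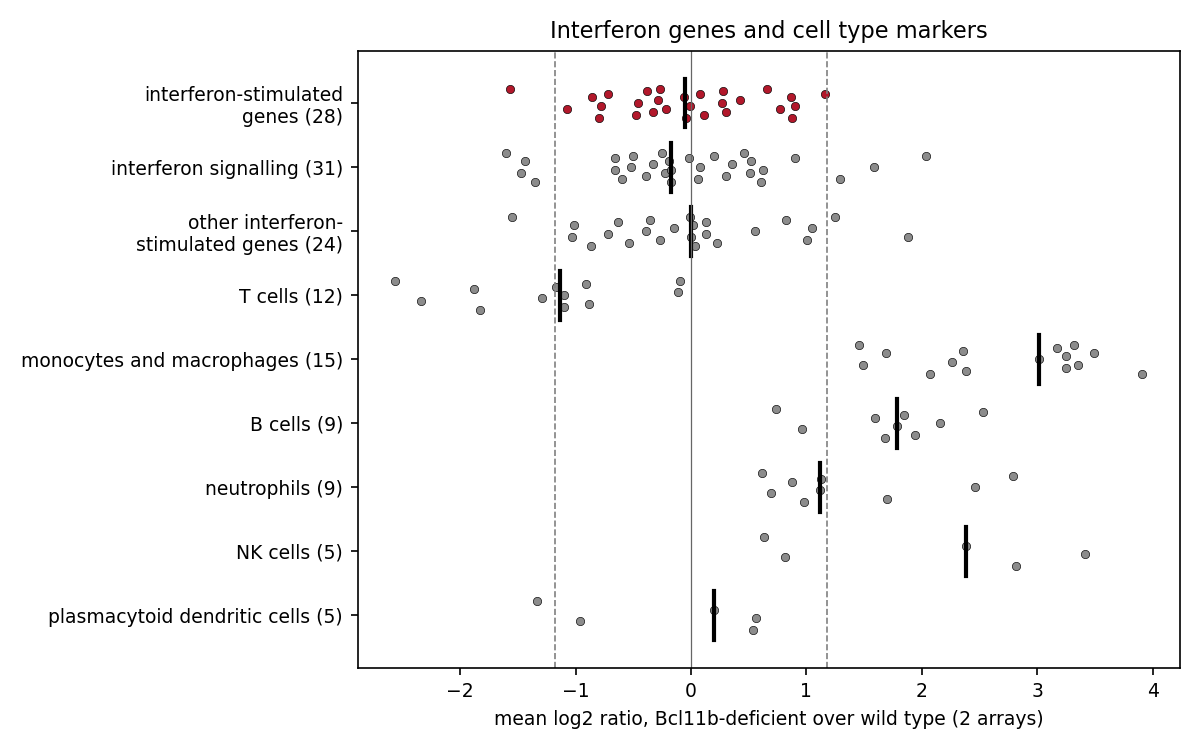
Log2 ratio (Bcl11b-deficient over wild type) of the measured genes of each list, 1 point a gene (mean of both arrays), with a bar at each list's median and dashed lines at 1.18 in either direction, the smallest mean called. The interferon-stimulated genes centre at -0.05, while the monocyte and macrophage markers centre at 3.01 and the T-cell markers at -1.14.

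Markers of several other cell types moved far more than the interferon-stimulated genes did, in cells labelled as more than 90% pure. As a list, those of plasmacytoid dendritic cells did not. All 15 measured markers of monocytes and macrophages, of 19 listed, passed as higher, with a median of 3.01 and led by Apoe, C1qc and Adgre1 (3.91, 3.49 and 3.35). Their summed signals were 232430 and 197685 in Bcl11b-deficient cells, against 31325 and 20213 in wild-type cells. Of 14 B-cell markers 9 were measured and 7 were higher, with summed signals of 134780 and 239776 in mutant cells and 54034 and 39215 in wild-type cells, led by H2-Ab1, H2-Eb1 and Ms4a1 (2.53, 2.15 and 1.94). All 12 T-cell markers were measured, and 5 were lower, with summed signals of 106554 and 73188 in mutant cells and 185702 and 217170 in wild-type cells, led by Cd6, Cd3e and Cd5 (-2.56, -2.34 and -1.88). Cd8a and Cd8b1, the chains of CD8, were bright in both genotypes and did not pass (-0.91 and -1.10). In such bulk RNA, fewer cells of a type and less RNA per cell cannot be told apart.

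The plasmacytoid dendritic cell list, relevant because those cells make much type I interferon, had 5 of 8 markers measured. None passed as higher and 1, Pacsin1, passed as lower (-1.33), and the list's median was 0.20. Ccr9 also stood below 0 (-0.96), while Spib, Tcf4 and Cox6a2 stood above it (0.57, 0.54 and 0.20). The summed signals were 6236 and 4521 in mutant cells and 8501 and 7677 in wild-type cells, where Ccr9 and Pacsin1 made up most of the sum. The defining marker Siglech did not reach the filter. Of 11 neutrophil markers 9 were measured and 3 were higher, led by S100a9, S100a8 and Camp (2.79, 2.46 and 1.70), with summed signals of 89484 and 54463 in mutant cells and 13486 and 11539 in wild-type cells. Of 7 NK-cell markers 5 were measured and 3 were higher, namely Fcer1g, Tyrobp and Klrb1c (3.41, 2.82 and 2.38). The sums were 43047 and 29949 in mutant cells against 5949 and 3997 in wild-type cells, and Fcer1g and Tyrobp made up most of them. Ncr1 and Eomes stood above 0 but did not pass (0.64 and 0.81), and Klra8 and Klre1 did not reach the filter. Of 6 conventional dendritic cell markers 3 were measured, and Itgax and Batf3 were higher (2.00 and 1.72) while Xcr1 did not pass (-0.38). Of 5 erythroid markers 2 were measured, Slc4a1 and Alas2, and both were higher (1.48 and 1.40). Myeloid and B cells also express Ifitm3, Ly6e, Irf5, Irf8 and Ifi30, and the part of these markers in those results was not tested.

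Of 299 member values over 11 alternatives with both arrays, 272 kept their direction and their side of the threshold, 13 changed sign, 8 newly passed and 6 no longer passed. The sign was the same in every setting for 21 members and changed in at least 1 for 7. None of the alternatives called 22 of the members, and each of the other 6 was called in at least 1.

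**Figure D5:**
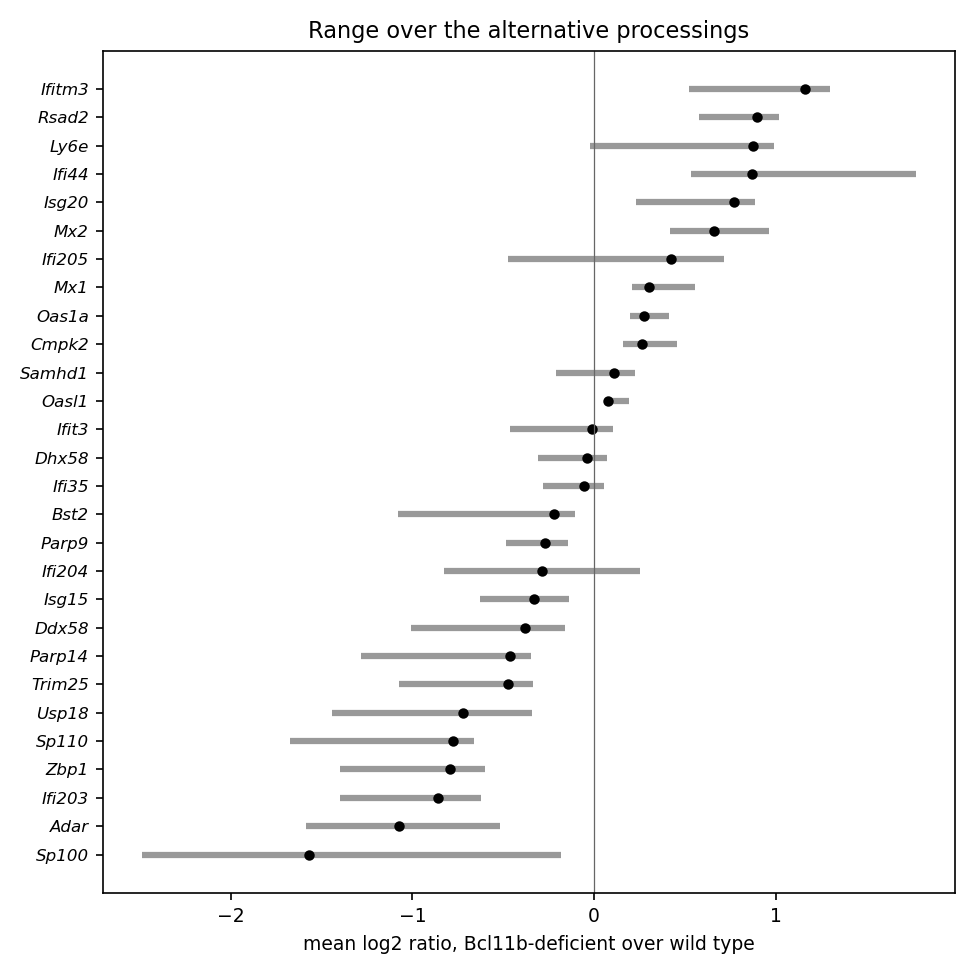
Mean log2 ratio (Bcl11b-deficient over wild type) of each measured interferon-stimulated gene as reported (point) with its lowest and highest value over the 11 alternative settings that use both arrays (line). The line of Sp100 runs between -2.49 and -0.18, and 7 members have lines that cross 0.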

How the data were processed

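Total RNA was amplified, labelled with Cy5 (Bcl11b-deficient) and Cy3 (wild type) and hybridised to 2 two-colour arrays, per the labels' protocols. Intensities were read per spot with Agilent Feature Extraction 9.5.3.1, per the submitters' processing notes, and the files hold mean and local background intensities as deposited. The deposited value table holds log10 ratios, red over green, which differed from the scanner's own log10 ratios by at most 0.00500 on replicate 1 and 0.00493 on replicate 2. The alternatives with Feature Extraction ratios and with the deposited table turn these log10 ratios, as deposited, into log2.

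From the intensities, background was corrected by normexp (offset 50), loess was run within arrays with control spots at weight 0, outlier spots were dropped and duplicate spots averaged (limma 3.58.1, R 4.3.3). Of 41174 probes 12632 had the same channel well above background on both arrays, and the brightest probe stood for each of 9941 genes. Names came from RefSeq by accession (24375 probes) or symbol (8727), otherwise from the array (8072). The log2 ratio was tested with lmFit and eBayes against 0, two-sided, with Benjamini-Hochberg adjustment over all genes and a threshold of 0.05; the test was run on simulated data first. Signals are from both channels after loess and Aquantile. A fold marked "at least" sets the bright group's mean against the higher of the dim probe's own signal and the lowest signal well above background on that array. Probe positions are those of the array's NCBI36 annotation. Signals are given for members that passed and for the highest and lowest of each role, other members by ratio; of each marker list up to 3 with the largest absolute mean are named, and of the signalling lists those that passed plus Stat2, Irf9, Irf7, Ifnar1 and Ifnar2; 1 further gene of this rule is not reported here. No member that passed held the response element, so the promoter stretches, Ifng, Cd8a, Cd8b1, Tcf4, Cox6a2, Ncr1 and Eomes fall outside that rule. The members and lists were chosen with earlier results of these data known.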

Additional observations from a re-analysis of the deposited data

How the results depend on the processing

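With both arrays, 11 alternatives were run, and the cause of each move below was not tested. Where the filter was changed, the number of genes tested changed as well. Against 363 higher and 592 lower genes in all, there were 50 and 65 with Feature Extraction ratios or the deposited table, 69 and 350 with median centring, 560 and 220 when both genotypes had to be above background (5836 genes tested), and 186 lower without background correction. Separate channels gave 0 and 0 (limma; 1983 genes at an unadjusted p under 0.05), as did no filter on dim probes (27595 genes tested, 5116 at an unadjusted p under 0.05).

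When both genotypes had to be above background, 3 of the 19 interferon-stimulated genes tested were higher (Ifitm3, Ly6e and Rsad2), as were 560 of 5836 genes in all. Of 28 tested, 1, Ifitm3, was higher without background correction, after centring arrays on the genes' median, and with an intensity trend. Of all 9941 genes, 289, 536 and 432 were higher in these settings. The number lower was 2 with median centring (Sp100 and Sp110), where 350 of 9941 genes were lower. It was 0 with Feature Extraction ratios, the deposited table, no filter, the mean of probes and separate channels. When both genotypes had to be above background it was 1, where 220 of 5836 genes were lower. This 1 was Ifi203 in place of Sp100, whose remaining probe stood at -0.18 (limma adjusted p = 0.766). At an unadjusted p under 0.05 (limma) were 3 of 28 members with Feature Extraction ratios (2231 of 9941 genes) and 3 with the deposited values (2225). With no filter they were 9 of 35 (5116 of 27595 genes). With the mean of probes they were 6 of 28 (2161 of 9941) and with separate channels 8 (1983). The genes of both pathway lists (5 higher and 5 lower) were higher for 8 with both genotypes above background and for 0 with Feature Extraction ratios, median centring, the deposited table, no filter and separate channels; 1 was lower with Feature Extraction ratios, no background correction, median centring, the deposited table and both genotypes above background, and 0 with no filter and separate channels.

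Signs turned for Dhx58 (0.029 without background correction, 0.010 with median centring, 0.073 centred on the genes' median), Ifi35 (0.018 without background correction, 0.056 centred on the genes' median), Ifit3 (0.027 without background correction, 0.10 centred on the genes' median), Ifi204 (0.26, mean of probes), Ifi205 (-0.47) and Ly6e (-0.022) with median centring, and Samhd1 (-0.18 with Feature Extraction ratios and with the deposited table, -0.21 with median centring). Median centring moved the median of all genes to -0.41 and that of the members to -0.29, and Feature Extraction ratios moved them to -0.24 and -0.26. With no filter on dim probes they were 0.03 over 27595 genes and -0.22 over 35 members, the widest gap of any setting. The members' median was -0.42 to 0.24 when either array was left out, with no test. Sp100 also missed the threshold with Feature Extraction ratios (-2.49, adjusted p = 0.0941), the deposited table (0.0947), no filter (0.268), separate channels (0.110) and the mean of probes (0.255). Each array pairs the genotypes in its ratio, so the reported test is itself the paired one. Members with fewer than 2 arrays above background in a genotype are limited by signal over background there.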
